A study of Mus musculus with 9 samples.

Results

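The proteasome genes of the mouse midbrain were compared between DJ-1+/+ and DJ-1-/- mice. They were taken as the protein-coding genes whose symbol begins with Psma, Psmb, Psmc, Psmd, Psme, Psmf or Psmg, which gave 50 genes. Of these, 49 had at least 10 counts over the 9 libraries and were among the 18127 genes tested, out of 26602 genes with a count. The gene that was too low was Psmb11, the thymus-specific catalytic subunit, with 5 counts in all. DJ-1, encoded by Park7, is a protein whose loss causes a recessive, early-onset form of Parkinson's disease. The series holds midbrain tissue that includes the substantia nigra pars compacta (SNpc), from 4 DJ-1+/+ mice and 5 DJ-1-/- mice, untreated, 3 to 4 months old, 1 library per animal. The knockout is constitutive and not limited to a cell type, and the line had been crossed repeatedly to C57BL/6 before heterozygous animals were bred to give homozygotes. The tissue was lysed in bulk, so that fewer cells of a type and less RNA per cell cannot be told apart.

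The proteasome is the protease that degrades proteins tagged with ubiquitin. Its barrel-shaped 20S core is built of alpha rings, which gate the entrance, and beta rings, which carry the catalytic sites. The 19S regulatory particle caps the core, binds ubiquitin chains, unfolds the substrate with a ring of ATPases and removes the ubiquitin in its lid. In cells exposed to interferon the catalytic subunits Psmb5, Psmb6 and Psmb7 are replaced by Psmb8, Psmb9 and Psmb10, which forms the immunoproteasome. In neurons the proteasome clears misfolded and short-lived proteins, and its function is a long-standing subject of Parkinson's disease research.

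Each library was made with a 3′ mRNA-seq kit that primes at the poly(A) tail and reads 1 fragment per molecule next to it, so counts do not grow with transcript length and levels of different genes are set side by side as counts per 1000000 counts of the library (cpm). Library totals were 841974 to 886085 in DJ-1+/+ and 967751 to 1098125 in DJ-1-/- mice, so every DJ-1-/- library was the deeper, and 3 counts, taken as the lowest level that can be shown, were worth 2.73 to 3.56 cpm. Park7 itself was counted 105 to 132 times in DJ-1+/+ and 14 to 29 times in DJ-1-/- libraries, a log2 fold change of -2.71 (SE 0.15). Summed neuronal markers ran from 1631 to 1817 cpm with DJ-1 and from 1656 to 1759 cpm without it. Summed markers of dopaminergic neurons, which are not limited to the SNpc, were at 459 to 908 cpm with DJ-1 and 717 to 957 cpm without it. All 9 were fitted higher in DJ-1-/- mice and 4 of the 9 had an unadjusted p under 0.05, where 1.57% of all genes were higher at that threshold. A pair of DJ-1+/+ libraries stood apart. Choroid plexus markers summed to 644 cpm in replicate 1 and 1183 cpm in replicate 4 against 375 to 504 cpm in the other libraries, and cerebellar markers to 1087 cpm in replicate 1 against 254 to 460 cpm elsewhere. All 10 choroid plexus and all 8 cerebellar markers were fitted lower in DJ-1-/- mice, 4 and 5 of them at an unadjusted p under 0.05, where 1.26% of all genes were lower at that threshold. Microglial (604 to 718 cpm), astrocytic (1241 to 1515 cpm), oligodendrocytic (1872 to 2462 cpm) and endothelial markers (398 to 536 cpm) had overlapping ranges in the genotypes and no gene at an unadjusted p under 0.05, although all 6 endothelial markers were fitted lower. Counts of Y-linked genes exceeded those of Xist in DJ-1+/+ replicates 1 and 4 and in DJ-1-/- replicate 5, so this trait was uneven between the genotypes. Leaving out DJ-1+/+ replicates 1 and 4 removes the high choroid plexus and cerebellar markers and the DJ-1+/+ libraries with Y-linked counts at once, and these cannot be told apart. The part of the markers and of the Y-linked trait in the results below was not tested.

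No proteasome gene passed the test of a difference between DJ-1+/+ and DJ-1-/- midbrain. With edgeR's quasi-likelihood test, adjusted by Benjamini-Hochberg over all genes, 0 of the 49 had an adjusted p under 0.05, where 0.00552% of all genes tested did, which is Park7 alone. Without adjustment 0 of the 49 were higher and 0 lower at p under 0.05, against 1.57% and 1.26% of all genes, and DESeq2 also gave 0. None of the 49 had cpm values without overlap between the genotypes, where 0.662% of all genes were higher and 0.585% lower without overlap. The fitted log2 fold change was above 0 for 26 genes and below 0 for 23, with a median of 0.01 that equalled the 0.01 of all genes. It ran from -0.20 for Psme1 to 0.57 for Psmb9, and the smallest unadjusted p of edgeR's test was 0.0745, for Psmb10.

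The counts were deep enough to bound most of these differences. Of the 49 genes, 44 had at least 250 counts in all, and 40 of these 44 (90.9%) had a 95% interval of the log2 fold change that lay wholly within 0.5 of 0, as did 80.8% of the 9375 genes in the same count range. The fold change itself was within 0.2 of 0 for 42 of the 44 (95.5%), and for 89.3% of the genes of that range. The median SE was 0.09 for the 44 genes and 0.12 for genes of that range. The other 5 genes tested, Psma8, Psmb8, Psmb9, Psme2b and Psmc3ip, had 16 to 135 counts and no interval that narrow. All 5 were fitted higher in DJ-1-/- mice, by 0.13 to 0.57 on the log2 scale, while among all 5301 genes in their count range 2798 were fitted higher and 2503 lower, with a median of 0.04.

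**Figure D1:**
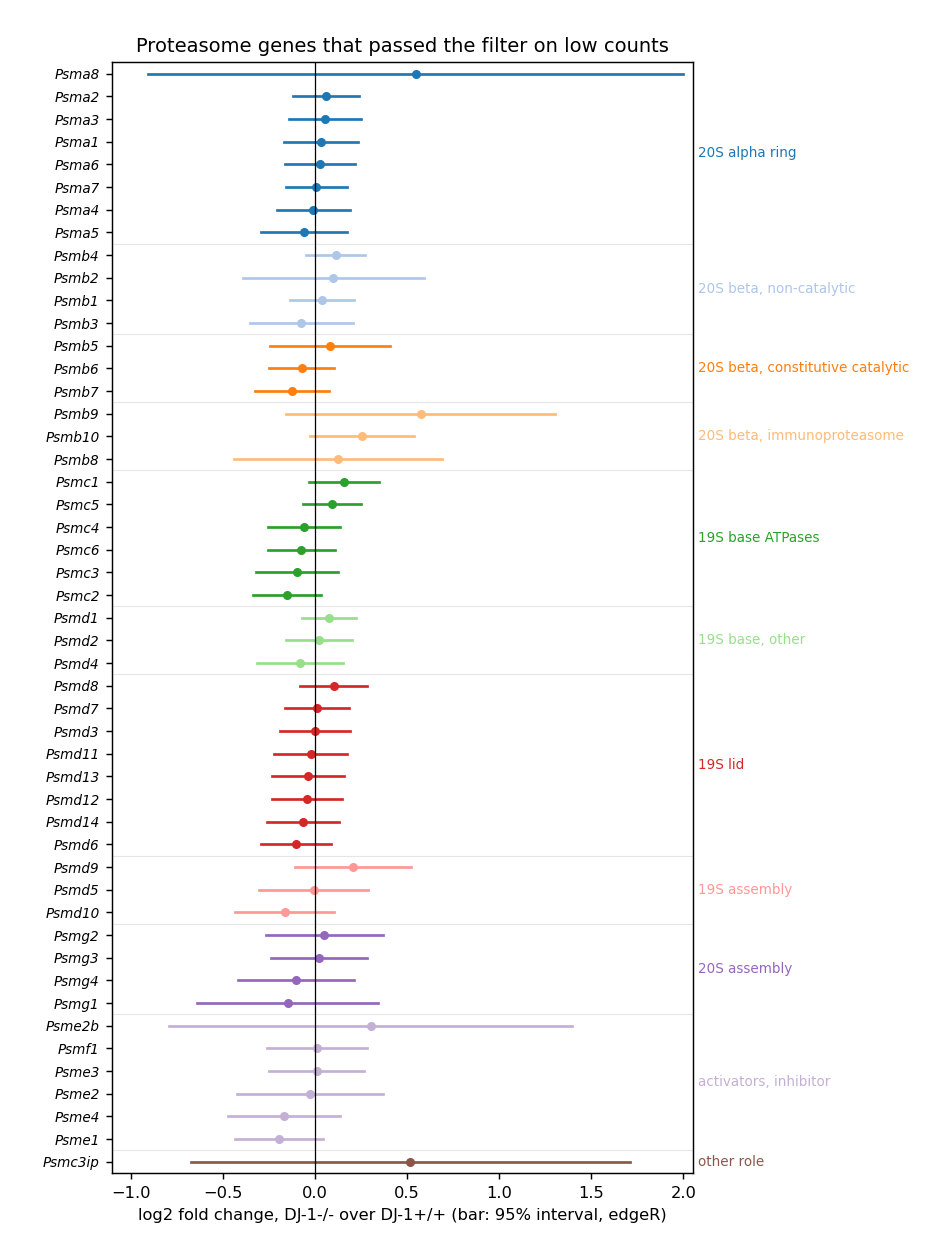
Log2 fold change of each of the 49 proteasome genes tested, DJ-1-/- over DJ-1+/+ mice (points), with the 95% interval from edgeR (bars), grouped and coloured by role. Every interval includes 0, and the intervals are wide for the 5 genes with few counts (Psma8, Psmb8, Psmb9, Psme2b and Psmc3ip).

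As a sum, the 50 genes took close to the same share of all counts in both genotypes. The summed level was 5278, 5246, 5404 and 5046 cpm in the DJ-1+/+ mice, in order of replicate number, and 5323, 5265, 5137, 5312 and 5146 cpm in the DJ-1-/- mice. The highest and the lowest value were both from DJ-1+/+ mice, with all 5 DJ-1-/- mice between them. The means were 5243 ± 148 cpm (SD, n = 4) and 5237 ± 89.5 cpm (SD, n = 5), which is 0.524% of all counts in each. The 20S core was summed as 15 genes, Psma1 to Psma8 and Psmb1 to Psmb7, without Psmb8 to Psmb11. The 19S particle was summed as 17 genes, without its assembly chaperones. The ratio of this 20S sum to this 19S sum was 0.689 ± 0.011 (SD, n = 4) with DJ-1 and 0.697 ± 0.030 (SD, n = 5) without it. The spread between mice was larger than this difference.

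**Figure D2:**
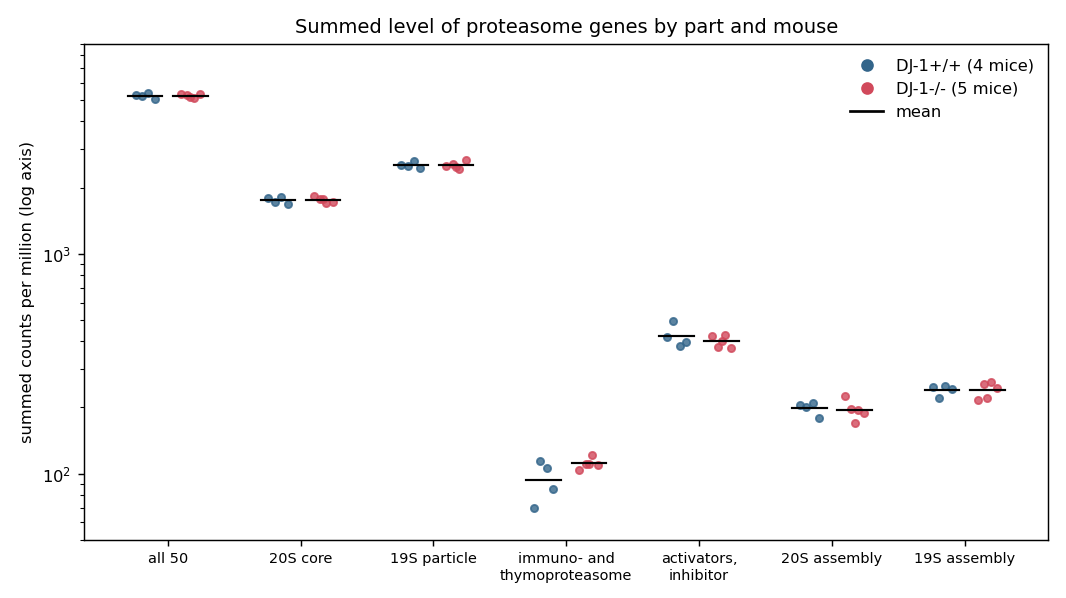
Summed cpm of the proteasome genes (log axis) in each DJ-1+/+ mouse (blue) and DJ-1-/- mouse (red), for all 50 genes and by structural part, with the mean of each genotype as a line. The values of the genotypes overlap in every part, and the immunoproteasome and thymoproteasome subunits have the widest spread, from 70.1 to 122 cpm.

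The start regions of these genes hold short motifs that are known to bind regulators of proteasome genes. RefSeq windows from 250 bases before to 50 after the start (GRCm38.p6) were found for 42 of the 50 genes, those without one being Psma8, Psmb1, Psmb2, Psmb7, Psmc3, Psmd3, Psmd7 and Psmg2. Each of 7 motifs was searched on both strands, separately, so that matches of different motifs may overlap. Some genes have more than 1 window (32851 windows for 27025 genes), and a gene was counted if any of its windows held the motif. The ETS core CCGGAAG was in 15 of the 42 genes (35.7%), against 9.93% of all 27025 genes and 17.8% of the 11436 protein-coding genes that were tested here and have a window. The antioxidant response element core TGACNNNGC, the kind of site bound by Nfe2l1 and Nfe2l2, was in 6 (14.3%), against 13.99% and 16.6%. The interferon-stimulated response element core was in 5 (11.9%), against 3.99% and 3.55%, and those 5 were Psmb3, Psmd4, Psmd9, Psme1 and Psmg4. The gamma-activated site core TTCNNNGAA was in 3 genes (7.14%), against 9.55% and 8.05%, and 1 of the 3 was Psmb8. CCAAT (35.7%, against 41.1% and 42.6%), the GC box GGGCGG (54.8%, against 38.2% and 66.9%) and the NF-kB site core (0%, against 1.89% and 1.98%) were also counted. A match is a run of letters and not a shown binding site. The stretches printed below show an ETS core in a scaffold (Psmd2), a ubiquitin receptor (Psmd4) and a lid gene (Psmd11) of the 19S particle. They also show an antioxidant response element core in core and ATPase genes (Psmb5, Psmb6, Psmc6), the gamma-activated site core of Psmb8, and the GC box of Psmb9. The match is in capitals, and all are read along the strand of the gene. Psmd2 lies at chr16:20651606-20651651 (+), Psmd4 at chr3:95042713-95042759 (-), Psmd11 at chr11:80428584-80428614 (+), Psmb5 at chr14:54618024-54618052 (-), Psmb6 at chr11:70525328-70525356 (+), Psmc6 at chr14:45329577-45329625 (+), Psmb8 at chr17:34198088-34198116 (+) and Psmb9 at chr17:34187370-34187395 (-). The stretches of Psmb8 and Psmb9 lie in annotated exons of GENCODE M21, and the other 6 lie outside annotated exons.
Psmd2: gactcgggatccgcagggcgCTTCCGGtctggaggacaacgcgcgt
Psmd4: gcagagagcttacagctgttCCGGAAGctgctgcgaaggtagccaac
Psmd11: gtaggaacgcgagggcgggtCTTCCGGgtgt
Psmb5: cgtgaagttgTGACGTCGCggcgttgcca
Psmb6: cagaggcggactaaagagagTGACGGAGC
Psmc6: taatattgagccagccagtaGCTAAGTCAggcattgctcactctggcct
Psmb8: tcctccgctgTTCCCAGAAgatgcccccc
Psmb9: cgcgatgatgGGGCGGggcctcagtc

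The alpha ring subunits differed little between the genotypes, and none passed the test. Psma1 to Psma7, which shape the gate of the core, had mean levels of 105 cpm (Psma5) to 176 cpm (Psma2) and log2 fold changes from -0.06 (Psma5) to 0.06 (Psma2). Psma2, the highest of the ring, was at 179, 194, 165 and 148 cpm in the DJ-1+/+ and at 178, 161, 189, 191 and 176 cpm in the DJ-1-/- mice. The DJ-1+/+ mice thus held both the highest and the lowest value of Psma2, and the fold change of 0.06 (SE 0.08) had a 95% interval from -0.12 to 0.24. Psma8, a germ-cell subunit that takes the place of Psma7 in the testis, had 1 to 4 counts per library. Its mean level, 1.44 cpm with DJ-1 and 2.16 cpm without it, was below what 3 counts are worth in both genotypes.

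The beta subunits without a catalytic site, Psmb1 to Psmb4, had fold changes from -0.07 (Psmb3) to 0.11 (Psmb4) on the log2 scale. Psmb4, the highest of them, was at 157, 159, 159 and 138 cpm in DJ-1+/+ and at 173, 169, 158, 157 and 170 cpm in DJ-1-/- mice. DJ-1+/+ replicate 4 was the lowest, the other 3 DJ-1+/+ mice lay around the lowest 2 DJ-1-/- mice, and the difference of 0.11 (SE 0.08) did not pass (exact permutation test, two-sided p = 0.127). Psmb2 lies on chromosome 4 as the only proteasome gene on the chromosome of Park7, 24.2 Mb away from it, and had the widest spread between mice of all 49 genes by the index of dispersion given further on. Its cpm was 49.9, 30.7, 52.4 and 54.2 in DJ-1+/+ and 64.1, 50.1, 56.7, 24.8 and 54.6 in DJ-1-/- mice, with 1 low mouse in each genotype.

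The constitutive catalytic subunits were level between the genotypes within the spread of the mice. Psmb6, the caspase-like subunit, was at 148, 147, 154 and 157 cpm in DJ-1+/+ and at 153, 161, 123, 148 and 134 cpm in DJ-1-/- mice, a log2 fold change of -0.07 (SE 0.08, 95% interval -0.25 to 0.10). Psmb7, the trypsin-like subunit, was at 128, 128, 138 and 138 cpm in DJ-1+/+ and at 140, 124, 99.0, 116 and 131 cpm in DJ-1-/- mice, a fold change of -0.13 (SE 0.10, interval -0.33 to 0.08). For both subunits the DJ-1-/- mice spread further, on either side of the DJ-1+/+ mice. Psmb5, the chymotrypsin-like subunit, was at 73.6, 53.4, 55.8 and 74.5 cpm in DJ-1+/+ and at 76.1, 75.6, 75.3, 49.6 and 63.3 cpm in DJ-1-/- mice. Both genotypes held higher and lower mice, and the fold change was 0.08 (SE 0.15). Without DJ-1+/+ replicates 1 and 4 it was 0.32, with an unadjusted p of edgeR's test of 0.103. Both of these libraries were high in choroid plexus markers, replicate 1 was also high in cerebellar markers, and both had Y-linked counts.

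The immunoproteasome subunits had the highest fitted values of the catalytic genes, and none passed the test. Psmb10 was the most abundant, at 51.1, 88.6, 81.4 and 65.5 cpm in DJ-1+/+ and at 79.1, 83.8, 94.9, 89.9 and 80.9 cpm in DJ-1-/- mice. DJ-1+/+ replicates 1 and 4 were below every DJ-1-/- mouse, and the other DJ-1+/+ mice were among them. The means were 71.7 ± 16.8 cpm (SD, n = 4) and 85.7 ± 6.58 cpm (SD, n = 5), a 1.19-fold difference with a 95% interval from 0.981 to 1.45 (log2 0.25, SE 0.13, edgeR's unadjusted p = 0.0745, exact permutation test, two-sided p = 0.159). Without DJ-1+/+ replicates 1 and 4 it was 0.01 on the log2 scale. With single DJ-1+/+ libraries left out, edgeR's unadjusted p was 0.0175 without replicate 2 and 0.0458 without replicate 3. Without replicate 1 the fold change was 0.13 on the log2 scale.

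Psmb9 was counted 6, 5, 4 and 6 times in the DJ-1+/+ and 7, 10, 10, 8 and 11 times in the DJ-1-/- mice. In cpm these are 7.13, 5.68, 4.65 and 6.77 against 7.01, 9.11, 10.3, 8.27 and 10.7. The lowest DJ-1-/- mouse, replicate 1, was just under the highest DJ-1+/+ mouse, also replicate 1, and the other 4 DJ-1-/- mice were above all 4 DJ-1+/+ mice. The means of 6.06 ± 1.12 cpm (SD, n = 4) and 9.08 ± 1.51 cpm (SD, n = 5) differed 1.49-fold with a 95% interval from 0.898 to 2.47. By edgeR's test the log2 fold change of 0.57 (SE 0.34) had an unadjusted p of 0.115 and an adjusted p of 1. The exact permutation test on cpm gave a two-sided p of 0.0317, the only 1 under 0.05 among the 20 proteasome genes so tested, where the smallest p that 4 mice against 5 allow is 0.0159. It does not pass once the 20 tests are allowed for. Over the settings tried, the fold change of Psmb9 stayed between 0.47 and 0.80 and edgeR's or DESeq2's unadjusted p between 0.0784 and 0.268.

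Psmb8, encoded near Psmb9 in the major histocompatibility complex, was at 11.9, 19.3, 17.5 and 11.3 cpm in DJ-1+/+ and at 17.02, 18.2, 16.5, 11.4 and 18.5 cpm in DJ-1-/- mice. The same DJ-1+/+ mice that were low in Psmb10, replicates 1 and 4, were low in Psmb8, and the log2 fold change of 0.13 (SE 0.27) turned to -0.16 without them. Its 95% interval, from -0.44 to 0.69, includes the value fitted for Psmb9, and the difference between these genes was not tested. Psmb11 was listed with 0 counts in 5 of the 9 libraries and with 1 or 2 counts in the others, which is under the level that can be shown.

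**Figure D3:**
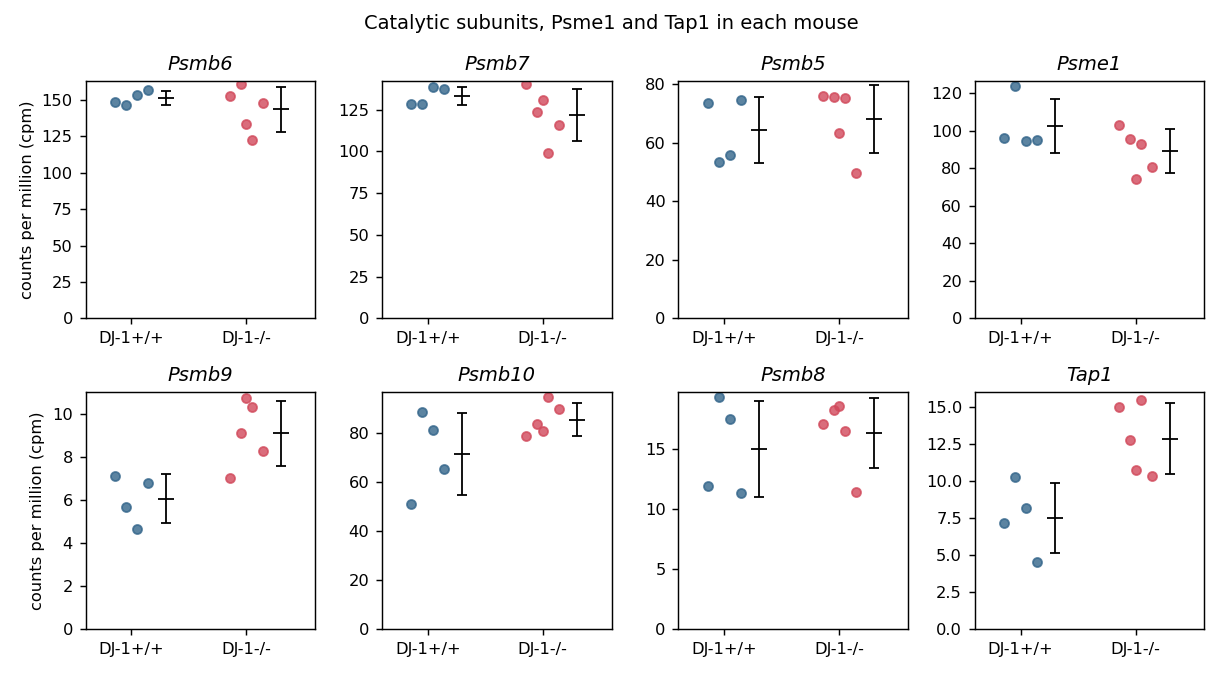
Cpm of the constitutive (Psmb6, Psmb7, Psmb5) and the matching interferon-inducible catalytic subunits (Psmb9, Psmb10, Psmb8), of the activator subunit Psme1 and of Tap1, in each DJ-1+/+ mouse (blue) and DJ-1-/- mouse (red), with mean and SD in black. Only the values of Tap1 do not overlap between the genotypes, and those of Psmb9 overlap by a single pair of mice.

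The share of each interferon-inducible subunit in the sum of it and its constitutive partner does not depend on the library total. For Psmb10 against Psmb7 it was 28.5, 40.8, 37.0 and 32.2% in DJ-1+/+ and 36.1, 40.4, 48.9, 43.7 and 38.2% in DJ-1-/- mice, with means of 34.6 ± 5.42% (SD, n = 4) and 41.5 ± 5.04% (SD, n = 5). For Psmb9 against Psmb6 the means were 3.85 ± 0.70% (SD, n = 4) and 6.04 ± 1.47% (SD, n = 5), with 2.94 to 4.58% in the DJ-1+/+ and 4.38 to 7.75% in the DJ-1-/- mice. The ranges overlapped for both pairs. For Psmb8 against Psmb5 the mean was 19.4% in both genotypes, with 13.2 to 26.6% in DJ-1+/+ and 18.0 to 22.6% in DJ-1-/- mice. The constitutive subunit thus had more counts than its partner in every mouse. For Psmb10 in DJ-1-/- replicates 3 and 4 this order was within counting error. The exact (Clopper-Pearson) 95% intervals of these shares were 41.6 to 56.3% and 36.7 to 50.9%. The differences in shares between the genotypes were not tested. Counting error alone gave the Psmb9 share of the highest mouse, 7.75%, an exact (Clopper-Pearson) 95% interval from 3.78 to 13.8%.

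**Figure D4:**
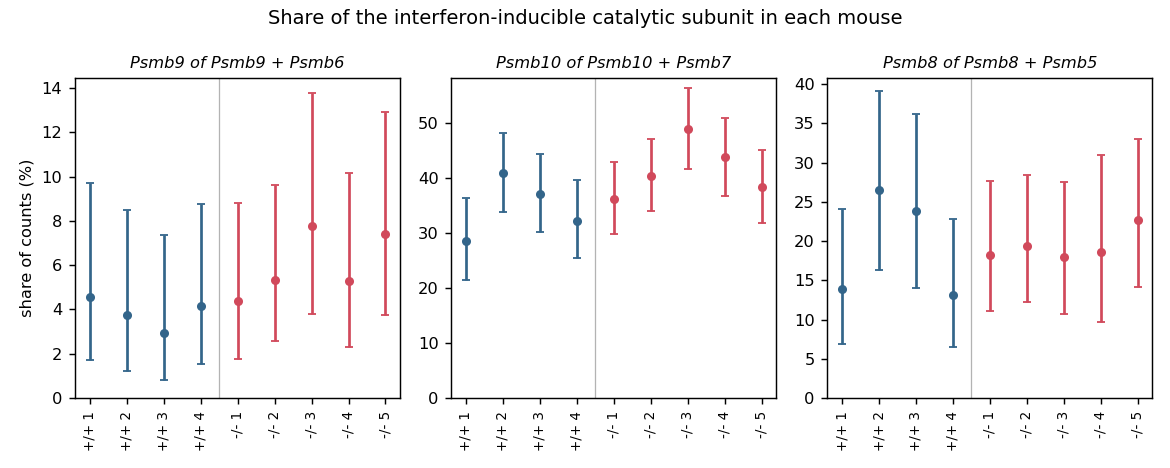
Share of counts (%) of Psmb9, Psmb10 and Psmb8 in the sum of each with its constitutive partner, for each DJ-1+/+ mouse (blue) and DJ-1-/- mouse (red), with exact (Clopper-Pearson) 95% binomial intervals that cover counting error only. The shares are highest for Psmb10 (28.5 to 48.9%) and lowest for Psmb9 (2.94 to 7.75%).

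The ATPases of the 19S base, Psmc1 to Psmc6, unfold substrates and open the core. Their log2 fold changes ran from -0.15 (Psmc2) to 0.16 (Psmc1). Psmc5 was the most abundant of them and the second of all proteasome genes, with 224, 195, 197 and 200 cpm in DJ-1+/+ and 234, 218, 216, 227 and 194 cpm in DJ-1-/- mice. The lowest value was from a DJ-1-/- mouse and the second highest DJ-1+/+ mouse was below 4 of the 5 DJ-1-/- mice, so the genotypes overlapped, with a fold change of 0.09 (SE 0.07). Leaving out DJ-1-/- replicate 3, which was the lowest DJ-1-/- mouse for Psmc1 at 168 cpm, gave Psmc1 a fold change of 0.22 with an unadjusted p of 0.0129 by edgeR, and leaving out DJ-1+/+ replicate 1 gave 0.11 with 0.278. Psmc3 had a fold change of -0.10 (SE 0.11, edgeR's unadjusted p = 0.369) over all mice. It was -0.20 without DJ-1-/- replicate 4, its highest mouse at 191 cpm with an unadjusted p of 0.0416 by edgeR, and -0.03 without DJ-1+/+ replicate 3, with 0.785.

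The scaffold and ubiquitin receptor genes of the base included the most abundant gene of all. Psmd1, a large scaffold subunit that docks ubiquitin-binding factors, had the highest level of all 50 genes, with a mean of 217 cpm. It was at 191, 211, 215 and 226 cpm in DJ-1+/+ and at 209, 236, 216, 221 and 230 cpm in DJ-1-/- mice, a log2 fold change of 0.08 (SE 0.07, 95% interval -0.07 to 0.22). The fold change was 0.02 for the scaffold subunit Psmd2 and -0.08 for the ubiquitin receptor Psmd4. Psmd4 was among the most variable genes, from 134 to 205 cpm, both extremes in DJ-1-/- mice.

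All 8 genes of the 19S lid, which holds the deubiquitinase Psmd14, had a 95% interval within 0.5 of 0, with fold changes from -0.10 (Psmd6) to 0.10 (Psmd8) on the log2 scale. Psmd14 itself averaged 119 ± 8.10 cpm (SD, n = 4) with DJ-1 and 114 ± 12.9 cpm (SD, n = 5) without it (log2 fold change -0.07, SE 0.09). The highest of the lid, Psmd7, was at 162, 173, 164 and 163 cpm in DJ-1+/+ and at 159, 163, 153, 194 and 165 cpm in DJ-1-/- mice. DJ-1-/- replicate 4 stood above all others, and the other 4 overlapped the DJ-1+/+ mice, with a fold change of 0.01 (SE 0.08).

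The assembly chaperones were lower and less precisely measured. Of the chaperones of the 19S base, Psmd5, Psmd9 and Psmd10, the last was the highest, with 99.8, 97.7, 96.6 and 88.0 cpm in DJ-1+/+ and 58.1, 90.2, 96.97, 97.1 and 83.8 cpm in DJ-1-/- mice. DJ-1-/- replicate 1 was far below the rest, and the fold change of -0.16 (SE 0.13) did not pass. Psmd9 had a fold change of 0.21 (SE 0.15), which was 0.06 without DJ-1+/+ replicate 2 and 0.40 without DJ-1+/+ replicates 1 and 4, with unadjusted p of 0.640 and 0.0488 by edgeR. Chaperones of the 20S core, Psmg1 to Psmg4, ran from -0.15 (Psmg1) to 0.05 (Psmg2). Psmg3, the highest of them, was at 78.4, 65.9, 81.4 and 59.8 cpm in DJ-1+/+ and at 80.1, 76.5, 62.9, 75.4 and 66.3 cpm in DJ-1-/- mice, with every DJ-1-/- mouse inside the range of the DJ-1+/+ mice (fold change 0.02, SE 0.12).

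Of the activators that open the core in place of the 19S particle, the interferon-inducible Psme1 had the lowest fitted value of all 49 genes. It was at 96.2, 124, 94.2 and 94.8 cpm in DJ-1+/+ and at 103, 95.6, 92.8, 80.6 and 74.1 cpm in DJ-1-/- mice. The highest value was DJ-1+/+ replicate 2 and the lowest 3 were DJ-1-/- mice. This gave a log2 fold change of -0.20 (SE 0.11, 95% interval -0.44 to 0.04), with an unadjusted p of 0.102 by edgeR and an exact two-sided permutation p of 0.206. Psme1 had an unadjusted p of 0.0271 in edgeR's fit with a term for the 3 libraries with Y-linked counts (replicates 1 and 4 of DJ-1+/+ and replicate 5 of DJ-1-/- mice), and 0.0443 without DJ-1-/- replicate 1. Without DJ-1+/+ replicate 2, its highest mouse, the fold change was -0.10 with a p of 0.401 by edgeR. Its partner in the same ring, Psme2, was at 41.6, 62.5, 40.7 and 42.9 cpm in DJ-1+/+ and at 43.0, 41.0, 57.8, 34.1 and 54.6 cpm in DJ-1-/- mice. DJ-1+/+ replicate 2 was again the highest, and the fold change was -0.03 (SE 0.19).

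Psme3, the nuclear activator, was at 89.1, 92.1, 83.8 and 85.8 cpm in DJ-1+/+ and at 94.1, 80.1, 83.6, 90.9 and 92.6 cpm in DJ-1-/- mice (log2 fold change 0.01, SE 0.12). Psme4, an activator linked to histone degradation, was at 113, 123, 84.9 and 73.4 cpm in DJ-1+/+ and at 84.1, 74.7, 95.9, 79.6 and 103 cpm in DJ-1-/- mice. The DJ-1+/+ mice held both extremes of Psme4, the fold change was -0.17 (SE 0.14), and with single libraries left out it ran from -0.29 without DJ-1+/+ replicate 4 to -0.05 without DJ-1+/+ replicate 2, with unadjusted p of 0.0454 and 0.732 by edgeR. Psmf1, an inhibitor of the core, was at 77.2, 86.4, 73.3 and 91.4 cpm in DJ-1+/+ and at 90.1, 77.4, 88.7, 83.7 and 75.0 cpm in DJ-1-/- mice (log2 fold change 0.01, SE 0.13). The intronless copy of Psme2, Psme2b, had 2 to 9 counts per library, and reads of the copies may not have been told apart in counting. Psmc3ip, which matches the symbol rule but is not a proteasome subunit and acts in meiotic recombination, had 2, 1, 2 and 3 counts in DJ-1+/+ and 4, 4, 5, 2 and 2 counts in DJ-1-/- mice. The mean level of Psmc3ip was 2.31 cpm with DJ-1 and 3.36 cpm without it, about what 3 counts are worth.

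Levels differed far more between subunits than between genotypes. Among the 44 genes with at least 250 counts the mean level ran over a 7.21-fold range, from 30.1 cpm for Psmg1 to 217 cpm for Psmd1. Next to Psmd1 came Psmc5 (212 cpm), Psmc1 (195 cpm), Psma2 (176 cpm) and Psma7 (172 cpm), and the ranges over mice of neighbours in this order overlapped, from 191 to 236 cpm for Psmd1 and from 194 to 234 cpm for Psmc5. The spread of each gene between mice of a genotype was set against counting error by an index of dispersion, which is 1 when mice differ by counting error alone. Its median was 1.05 for the 44 genes and 1.05 for all genes in their count range. The highest values were those of Psmb2 (3.45), Psmd4 (3.28), Psme4 (2.99), Psmb3 (2.82) and Psmc3 (2.80).

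**Figure D5:**
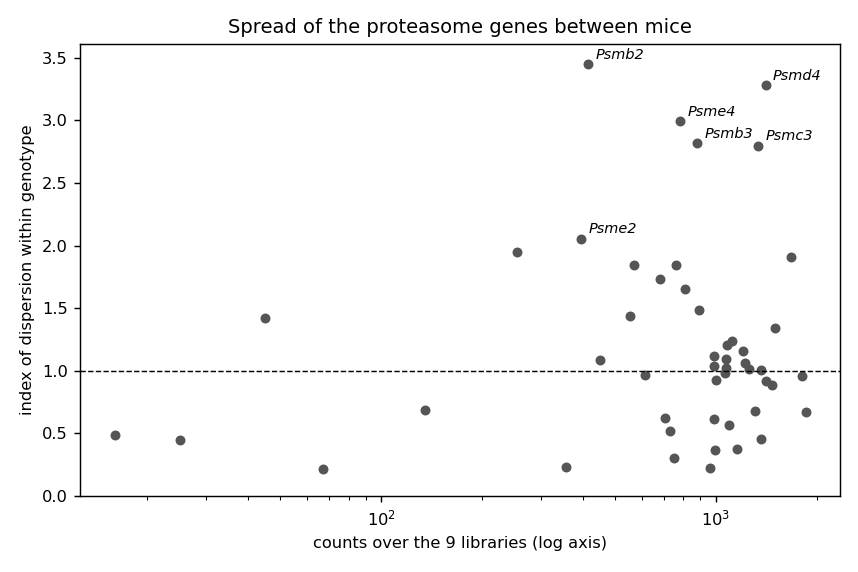
Index of dispersion of each of the 49 proteasome genes between mice of the same genotype (variance over counting variance, 7 degrees of freedom) against the counts over the 9 libraries (log axis), with the dashed line at counting error alone. Most genes lie around 1, and genes above 2 are named.

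The proteasome genes are scattered over 16 chromosomes, with 10 on chromosome 11 and 6 on chromosome 14, and 13 of the 49 overlap another protein-coding gene. These include Psmb7, Psma2, Psmg3, Psmd1, Psme1 and Psmb9 of the genes written out above. Whether strand was used in counting is not given in the sources used here, so reads of genes that overlap on opposite strands may not have been told apart. Psma2, Psmg3, Psmd1 and the low Psme2b overlap a protein-coding gene on their own strand, where strand cannot separate the reads. Psmb9 (chromosome 17, 34181987 to 34187764, minus strand, GRCm38) and Tap1 (34187553 to 34197225, plus strand) run away from each other and overlap by 212 bases at their 5′ ends, with RefSeq start sites 226 bases apart. The 3′ ends, near which this kit reads, lie at the far sides of the pair.

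Other genes of the ubiquitin-proteasome system were counted in the same way. Of the 44 tested, 18 had a fitted log2 fold change above 0 and 26 one below it, the median was -0.01, and the values ran from -0.60 (Maff, a small transcription factor partner of Nfe2l1, 3 to 8 counts per library) to 0.77 (Tap1). By edgeR's test 0 had an adjusted p under 0.05, and 1 was higher and 1 lower at an unadjusted p under 0.05, beside 1.57% and 1.26% of all genes. Both of these had cpm values without overlap between the genotypes, as did 0.662% (higher) and 0.585% (lower) of all genes.

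Uchl5, a deubiquitinase that sits on the 19S particle and trims ubiquitin chains, was the lower one. It was at 127, 128, 131 and 121 cpm in DJ-1+/+ and at 119, 100.2, 86.7, 111 and 115 cpm in DJ-1-/- mice. All 5 DJ-1-/- mice were below all 4 DJ-1+/+ mice, although DJ-1-/- replicate 1 was within 2 cpm of the lowest. The means were 127 ± 4.51 cpm (SD, n = 4) and 106 ± 13.1 cpm (SD, n = 5), a log2 fold change of -0.25 (SE 0.09), with an unadjusted p of 0.0155 and an adjusted p of 1 by edgeR. The unadjusted p stayed under 0.05 in all 19 settings, from 0.00743 to 0.0462. The ubiquitin receptor that anchors Uchl5 to the proteasome, Adrm1, averaged 38.0 ± 3.40 cpm (SD, n = 4) with DJ-1 and 42.9 ± 6.81 cpm (SD, n = 5) without it, a fold change of 0.17 (SE 0.16).

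Tap1, a peptide transporter that feeds proteasome products to class I molecules, was the higher one. It was counted 6, 9, 7 and 4 times in DJ-1+/+ and 15, 14, 15, 10 and 11 times in DJ-1-/- mice, which is 7.503 ± 2.37 cpm (SD, n = 4) and 12.9 ± 2.37 cpm (SD, n = 5). Its log2 fold change of 0.77 (SE 0.32) had an unadjusted p of 0.0303 and an adjusted p of 1 by edgeR, and the unadjusted p was under 0.05 in 10 of the 19 settings. Without DJ-1+/+ replicates 1 and 4 it was 0.48 with a p of 0.229. Of its partners in antigen processing, the transporter partner Tap2 had a log2 fold change of 0.02, the class I light chain B2m 0.02 and the chaperone Tapbp -0.01, and none of these passed.

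Other named genes of the system did not pass the test. Pomp, the maturation factor of the core, had a log2 fold change of 0.04 (SE 0.08), and the lid subunit Sem1 -0.08 (SE 0.12). Usp14, a second deubiquitinase of the 19S particle, had 0.08 (SE 0.08), and the ubiquitin ligase adaptor Fbxo7, mutated in a parkinsonian syndrome, 0.12 (SE 0.11). Nfe2l1, the transcription factor that raises proteasome genes when the proteasome is inhibited, had -0.07 (SE 0.08), with 155 ± 4.00 cpm (SD, n = 4) and 147 ± 6.49 cpm (SD, n = 5). Uchl1, an abundant neuronal ubiquitin hydrolase, had -0.03 (SE 0.06).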

How the data were processed

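Midbrain RNA of 9 mice (4 DJ-1+/+, 5 DJ-1-/-) was sequenced with a 3′ mRNA-seq kit. The authors deposited, for each mouse, whole-number counts of molecules (by unique molecular identifiers) per Ensembl gene, without normalization. The submitters' processing notes name fastp 0.20.0, STAR 2.7.3a, featureCounts 2.0.0 of Subread, UMI-tools 1.0.0 and GRCm38. The annotation release and the use of strand are not given in the sources used here. Replicates are different animals, and a gene not listed in a library was given 0 counts. No column of another sample was found. Symbols and positions are from GENCODE M21.

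Genes needed 10 counts in sum over the libraries and were tested with edgeR 4.0.16 (TMM, glmQLFit, glmQLFTest, genotype as the only term) in R 4.3.3, with Benjamini-Hochberg adjustment over 18127 genes. The SE is the one that gives the printed p, and the 95% interval follows from it and the t quantile of the fit. Exact two-sided permutation tests of mean cpm over 126 assignments were run in scipy 1.17.1. They covered the 20 proteasome genes written out by the rule below, and not Psmb2, Uchl5 or Tap1. Binomial intervals of shares and the limit of 3 counts cover counting error only. Alternatives were RLE size factors, library totals, DESeq2 1.42.0, no filter, filterByExpr, counts thinned to 841974 per library, the replicate number as a block, a term for libraries with Y-linked counts, and leaving out libraries. The scripts were tested on simulated data.

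Written out with each library's value were genes with an unadjusted p under 0.05 or without overlap, the most abundant gene of each role, all catalytic subunits, Psme1 to Psme4, Psmf1 and the extremes. Psmb2 was written out as well, outside this rule. Of the other ubiquitin-proteasome genes, those with an unadjusted p under 0.05, the extremes and Adrm1, Sem1, Pomp, Usp14, Uchl5, Fbxo7, Nfe2l1 and Uchl1 were named, and genes named beyond this were chosen after their values were seen. The genes and lists were chosen with earlier results of these data known. Sequences are from RefSeq windows on GRCm38.p6. Values of 1 listed gene are not reported here.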

Additional observations from a re-analysis of the deposited data

Results flagged for a closer look

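In 8 sets of 4 or 5 values, 1 mouse lay further from the rest of its genotype than Dixon's 95% critical value allows, where chance gives about 1 in 20 sets, or 6.3 of those examined. In DJ-1+/+ mice, Psmc5 was at 224 cpm in replicate 1 against 195 to 200 cpm in the others, Psmb4 was at 138 cpm in replicate 4 against 157 to 159 cpm, and Psma8 was at 2.33 cpm in replicate 3, which is 2 counts against 1. Replicate 2 was high in both interferon-inducible activator subunits, with 124 cpm of Psme1 against 94.2 to 96.2 cpm and 62.5 cpm of Psme2 against 40.7 to 42.9 cpm. In DJ-1-/- mice, Psmd12 was at 142 cpm in replicate 1 against 118 to 121 cpm. Replicate 4 was high in Psmd7, at 194 cpm against 153 to 165 cpm, and low in Psmb8, at 11.4 cpm against 16.5 to 18.5 cpm.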

How the results depend on the processing

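The count of proteasome genes at an adjusted p under 0.05 was 0 in all 19 settings, and no fold change past a threshold changed sign. The count at an unadjusted p under 0.05 was 0 except for 1 with no filter (Psmb10), with the term for Y-linked counts (Psme1) and without DJ-1+/+ replicates 1 and 4 together (Psmd9), and was 0 to 1 with single libraries left out (Psmb10 without DJ-1+/+ replicate 2 or 3, Psme4 without DJ-1+/+ replicate 4, and Psme1, Psmc1 and Psmc3 without DJ-1-/- replicates 1, 3 and 4). For the other ubiquitin-proteasome genes the count of 2 became 1 with DESeq2, no filter, thinned counts, the Y-linked term and without DJ-1+/+ replicates 1 and 4, and was 1 to 4 with single libraries left out. Genes without overlap numbered 1 without DJ-1+/+ replicates 1 and 4 (Psmb9), and 0 to 1 with single libraries left out (Psmb9 without DJ-1+/+ or DJ-1-/- replicate 1, Psmd9 without DJ-1-/- replicate 5). The causes were not tested.

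Over all genes, the count at an unadjusted p under 0.05 was 513, against 235 with DESeq2 and 802 with no filter, where 36 passed adjustment. The deviations of same-numbered mice from their genotype correlated at 0.29 for replicate 1, and at 0.04, -0.12 and -0.19 for replicates 2 to 4. With the replicate number as a block, 0 proteasome genes and 3 other ubiquitin-proteasome genes were at an unadjusted p under 0.05. The median of the proteasome genes was then 0.00, and 8 of all genes passed adjustment. Depth limits Psma8, Psmb9, Psmb11, Psme2b and Psmc3ip, which had at most 11 counts in any library.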
